A study of Hipposideros armiger with 2 samples.

Results

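Epithelial water and sodium transport genes were described in 2 RNA sequencing libraries labelled as liver of the great Himalayan leaf-nosed bat, Hipposideros armiger. Members were the assembled genes whose best protein match carried the name of an aquaporin (AQP1, AQP3, AQP4, AQP5, AQP9), a subunit of the epithelial sodium channel (SCNN1A, SCNN1B, SCNN1G), or the sodium pump subunit ATP1B1. Of 10 names sought, 9 had rows, out of 12783 distinct names in the tables; CFTR, the tenth, was not analysed here. Both animals came from the CW cave (Chunwan), carried the wild-type label WT and were labelled as exposed to heavy metals; the design text gives adult males, caught wild. They form 1 group, CW replicates 1 and 2, and animals of the other cave (Yingde) were not analysed here; the caves are therefore not compared. No p-value was computed for 1 library against 1 library.

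Water crosses epithelia through aquaporins, tetrameric membrane channels, some of which also carry glycerol. Sodium enters the cell from the luminal side through the epithelial sodium channel, built of alpha, beta and gamma subunits, and leaves on the other side through the sodium pump, which exchanges it for potassium. In the lung this route clears fluid from the airspaces. In liver the best known channel of this set is AQP9, through which hepatocytes take up glycerol for glucose synthesis; in human blood AQP9 is also made by neutrophils. AQP5 is best known from alveolar type I cells and from glands of the airways, and is a lung-type gene here.

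The libraries held 18741210 expected counts in replicate 1 and 18778331 in replicate 2. Their tissue label was checked against marker lists before any result. All 9 hepatocyte markers were listed above 1 TPM (a transcript level scaled to length and to the library total) in both libraries. They summed to 11710 TPM in replicate 1 and to 364 TPM in replicate 2, led by ALB at 7990 and 176, ASS1 at 1003 and 33.1, and HPD at 748 and 61.4 TPM. Alveolar type II markers, all 7 of them above 1 TPM in both libraries, summed to 3561 and 5598 TPM, led by SFTPC, SFTPB and SFTPA1. Alveolar type I markers summed to 690 and 1093 TPM, led by AGER, CAV1 and CLIC5, with 5 of 6 above 1 TPM in each library and HOPX at 0 in both. Airway secretory markers summed to 8382 TPM in replicate 1 and to 13420 TPM in replicate 2, the highest of these sums in replicate 2. Nearly all of this was 1 gene, SCGB3A1, at 8069 and 12900 TPM. The label of liver is thus in doubt as a full description of either library, and of replicate 2 above all. Hepatocyte markers were the lowest of these 4 sums in replicate 2 and the highest in replicate 1. In bulk tissue, fewer cells of a type and less RNA per cell cannot be told apart.

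All 9 genes were above 1 TPM in both libraries, and 8 were above 10 TPM in both; AQP4 was under that level in replicate 1. The sodium channel's alpha and beta subunits, ATP1B1 and AQP5 were the 4 highest. As a guide to these levels, the median name was at 8.74 TPM in replicate 1 and at 10.3 TPM in replicate 2. Together the 9 genes summed to 279 and 386 TPM. The TPM of 8 of them were lower in replicate 1 than in replicate 2, and AQP9 was the exception.

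**Figure D1:**
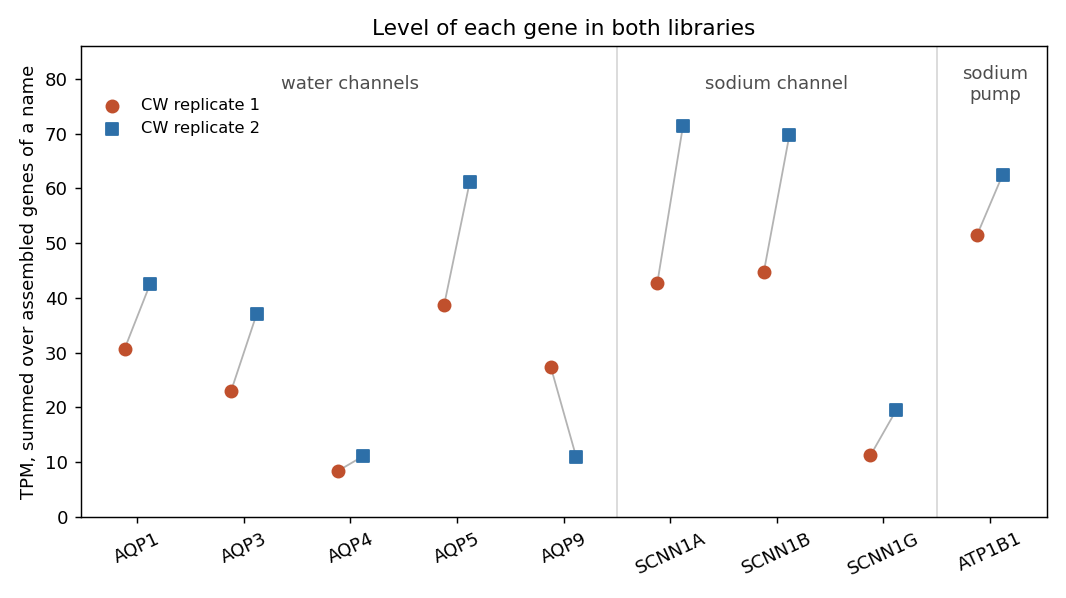
Level of each gene in TPM (vertical axis, linear, from 0), summed over assembled genes of a name, in CW replicate 1 (circles) and CW replicate 2 (squares), with genes ordered by role along the horizontal axis and a grey line joining the libraries. AQP9 is higher in replicate 1 (27.4 against 10.9 TPM), and the other 8 genes are lower there.

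Among the water channels, AQP9 and AQP5 were set side by side as the liver-type and the lung-type gene. AQP9 was at 27.4 TPM in replicate 1 and at 10.9 TPM in replicate 2, a mean of 19.1 ± 11.7 (SD, n = 2 here and below). AQP5 was at 38.8 and 61.2 TPM, a mean of 50.0 ± 15.9. AQP9 was thus the lower of the pair in both libraries, and the gap was wider in replicate 2. The TPM of AQP9 was 0.706 times that of AQP5 in replicate 1 and 0.178 times in replicate 2. On the log2(TPM + 1) scale AQP9 over AQP5 was -0.49 in replicate 1 and -2.39 in replicate 2, with a mean of -1.44 ± 1.35. The spread between the 2 libraries was nearly as large as the mean itself, so the direction was shared by both and the size was not.

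The AQP9 level in replicate 1 rested in part on a fragment. One AQP9 assembled gene of 3526 bases, with the membrane channel domain that aquaporins share, held 1030 counts in replicate 1 and 456 in replicate 2. The other, of 207 bases and with no domain listed, held 6 counts in replicate 1 (exact Poisson 95% interval 2.2 to 13.1) and 0 in replicate 2, yet added 8.93 TPM to the 18.5 TPM of the long one. A count was worth 1.44 TPM in the short assembled gene and 0.0179 TPM in the long one. With the long one alone, AQP9 was 0.476 times AQP5 in replicate 1 and 0.178 times in replicate 2. AQP5 was a single assembled gene of 3169 bases with 2391 and 3534 counts.

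On the CPM scale (counts scaled to the library total), AQP9 was at 55.3 CPM in replicate 1 (exact Clopper-Pearson 95% interval 52.0 to 58.8) and at 24.3 CPM in replicate 2 (22.1 to 26.6). AQP5 was at 127.6 CPM in replicate 1 (122.5 to 132.8) and at 188.2 CPM in replicate 2 (182.0 to 194.5). Each interval comes from 1 library and includes counting error only. The reads carry no molecular identifiers and are not independent, so the intervals may be too narrow even for that. For neither gene did the libraries' intervals overlap, but the same held for others of the 9, such as AQP1 and ATP1B1. Those of AQP4 overlapped. The share of all names without overlap was not computed, so nothing is read from this. With library size scaling alone, the median name had a log2 ratio of replicate 1 over replicate 2 of -0.24. By summed TPM instead, among all 12783 names, AQP9 stood above 81.6% in replicate 1 and 51.5% in replicate 2, and AQP5 above 87.3% and 91.6%. The AQP9 standing in replicate 1 includes the TPM of the fragment of 207 bases.

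The other water channels kept a common order in both libraries, AQP5 above AQP1 above AQP3 above AQP4. AQP1, the water channel of red cells, small-vessel endothelium and bile ducts, was at 30.7 TPM in replicate 1 and at 42.5 TPM in replicate 2. AQP3, a basolateral channel that also carries glycerol, was at 23.0 and 37.1 TPM. AQP4, basolateral in airway epithelium and abundant in astrocytes, was the lowest of these 4, at 8.39 and 11.1 TPM. Relative to AQP5, AQP3 was almost the same in both libraries, at 0.593 and 0.605 times. AQP1 was at 0.791 and 0.695 times AQP5, and AQP4 at 0.216 and 0.182 times. Of these 5 water channels AQP9 was the one whose proportion moved most, as its ratios to AQP5 above show.

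Aquaporins outside the set were sparse. Of 9 further names, 3 had rows, and AQP7, a glycerol channel of fat and testis, was the highest at 9.74 TPM in replicate 1 and at 8.89 TPM in replicate 2. AQP11 was at 0.48 and 0.30 TPM, and MIP, the lens channel, had 2 counts in replicate 1 and 0 in replicate 2, within the detection floor of 3 counts. All aquaporins summed to 140.7 TPM in replicate 1 and to 172.0 TPM in replicate 2. AQP9 made up 19.5% of that sum in replicate 1 and 6.32% in replicate 2, whereas AQP5 made up 27.6% and 35.6%. The AQP9 share in replicate 1 includes 8.93 TPM from the fragment of 207 bases and would be smaller without it. The shares of AQP1 (21.8% and 24.7%) and AQP3 (16.4% and 21.5%) were also larger in replicate 2.

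**Figure D2:**
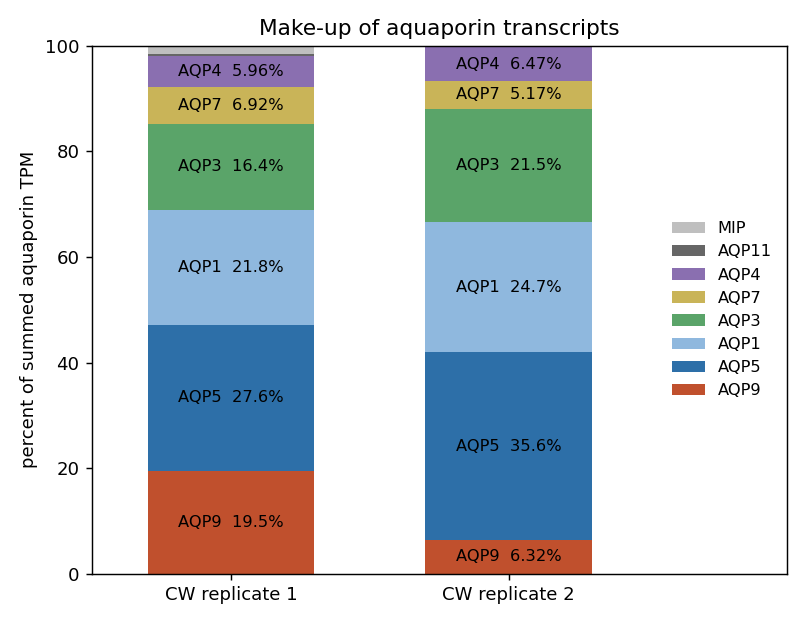
Share of each aquaporin in the summed aquaporin TPM (vertical axis, percent, from 0) of CW replicate 1 and CW replicate 2, as stacked bars. AQP9 holds 19.5% in replicate 1, the fragment of 207 bases included, and 6.32% in replicate 2. AQP5 is the largest share in both.

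The epithelial sodium channel was present with all 3 of its subunits. SCNN1A, the alpha subunit that the channel needs to conduct, was at 42.8 TPM in replicate 1 and at 71.3 TPM in replicate 2. SCNN1B, the beta subunit, was at 44.8 and 69.8 TPM. SCNN1G, the gamma subunit, was lower in both libraries, at 11.25 and 19.45 TPM. Alpha and beta transcripts were near a ratio of 1, with SCNN1A at 0.954 times SCNN1B in replicate 1 and 1.02 times in replicate 2, so which is higher differs between the libraries. SCNN1G was at 0.263 and 0.273 times SCNN1A, so the proportions of the subunits moved little, while their TPM were higher in replicate 2. On the scaled counts described below, the 3 subunits were only 1.15-fold to 1.19-fold higher in replicate 2.

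The gamma proportion depended on a short assembled gene of 405 bases, which held 18 counts in replicate 1 and 32 in replicate 2 and gave 4.50 and 9.10 TPM. With the longer assembled gene of 2153 bases alone (327 and 446 counts), SCNN1G was at 0.158 and 0.145 times SCNN1A. With TPM recomputed from the counts and the listed lengths, an alternative chosen after seeing the data, SCNN1G was at 0.366 and 0.373 times SCNN1A, and SCNN1A was at 0.823 and 0.842 times SCNN1B. Under all 3 ways SCNN1G was the lowest subunit in each library.

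Genes that process or regulate the channel were chosen as a list of 16, of which 15 had rows, all above 1 TPM in both libraries. The 4 highest were TSC22D3, a glucocorticoid-induced leucine zipper protein, at 100.8 TPM in replicate 1 and at 138.8 TPM in replicate 2, SPINT2, an inhibitor of membrane serine proteases, at 65.6 and 99.5 TPM, the kinase SGK1, which keeps the channel at the cell surface, at 63.4 and 80.1 TPM, and PRSS8 (prostasin), a protease that activates the channel, at 47.2 and 77.8 TPM. The TPM of these 4 were each lower in replicate 1, whereas FURIN of the same list was higher there, at 36.34 and 21.45 TPM. Of 14 that passed the filter described below, 0 were over 2-fold apart between the libraries in either direction, beside 5.16% of all names over 2-fold higher in replicate 1 and 0.0266% over 2-fold lower.

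The sodium pump was represented by ATP1B1, the beta subunit that carries the catalytic alpha subunit to the membrane. ATP1B1 was at 51.5 TPM in replicate 1 and at 62.5 TPM in replicate 2, the smallest relative difference among the 9 genes, 1.21-fold higher in replicate 2. Of 14 other pump names, 8 had rows. Among them, FXYD3, a small regulatory subunit, was at 210.7 and 342.6 TPM, FXYD1, which regulates the pump in muscle and heart, at 90.5 and 108.7 TPM, and ATP1B3, another beta subunit, at 45.9 and 62.5 TPM. The beta subunits ATP1B3 and ATP1B1 were thus at close levels, with ratios of 0.891 in replicate 1 and 1.0 in replicate 2.

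Ordered by mean TPM, the genes ran SCNN1B (57.3 ± 17.7), SCNN1A (57.1 ± 20.2), ATP1B1 (57.0 ± 7.77), AQP5 (50.0 ± 15.9), AQP1 (36.6 ± 8.39), AQP3 (30.0 ± 9.94), AQP9 (19.1 ± 11.7), SCNN1G (15.4 ± 5.80) and AQP4 (9.76 ± 1.93). Neighbours were taken to differ where the mean of their within-library differences exceeded the SD of those differences. With 2 libraries this is a lenient measure. By it, on the summed TPM, AQP5 stood above AQP1, AQP1 above AQP3, and SCNN1G above AQP4. The last of these placings depends on the short SCNN1G assembled gene of 405 bases. Without it, SCNN1G (6.75 and 10.35 TPM in replicates 1 and 2) lay below the summed AQP4 (8.39 and 11.1). On the recomputed TPM, SCNN1G (15.3 and 24.2) was again above AQP4 (9.32 and 12.2). SCNN1B and SCNN1A, though no neighbours of AQP5, also stood above it, with mean differences of 7.30 ± 1.80 and 7.04 ± 4.33 TPM. SCNN1B, SCNN1A and ATP1B1 could not be ordered among themselves, nor could ATP1B1 and AQP5. On the summed TPM, AQP9 could not be placed against AQP1, AQP3, SCNN1G or AQP4. Its rank was 6 in replicate 1 and 9 in replicate 2. In replicate 1 the long AQP9 assembled gene alone was at 18.5 TPM, below AQP3 at 23.0 TPM. The placing of AQP9 against AQP1 and AQP3 thus depends on the fragment of 207 bases. On the recomputed TPM, ATP1B1 was the highest in both libraries (80.7 and 103.2 TPM) and AQP5 the second (59.0 and 94.6 TPM). The order of the first 4, AQP5 below the channel subunits included, thus depends on how transcript length was counted. AQP9 ranked 7 in replicate 1 on that scale, below AQP3, and 9 in replicate 2.

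Differences between the libraries were next measured on counts. Counts were summed per name, scaled with TMM (a factor that corrects for a few abundant transcripts) and expressed as a log2 ratio of replicate 1 over replicate 2 on CPM + 1, which understates changes of low genes. The median of all names was then set to 0. Names needed a mean of at least 1 CPM, and 11290 passed, including all 9 genes described here. Of these names, 5.16% were over 2-fold higher in replicate 1 and 0.0266% were over 2-fold lower.

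AQP9 was over 2-fold higher in replicate 1, with a log2 ratio of 1.41, or 2.65-fold. The other 8 genes lay between -0.30 and -0.03: AQP5 was at -0.30, AQP3 at -0.26, SCNN1A at -0.25, SCNN1B at -0.22, SCNN1G at -0.20, AQP1 at -0.13, AQP4 at -0.07 and ATP1B1 at -0.03. The count over 2-fold higher in replicate 1 was 1 of 9 and over 2-fold lower 0 of 9, numbers too small to be read against the background shares. The 9 genes had a median of -0.20, beside 0 for all names by construction. Most names were close to 0, with the central range from the 10th to the 90th percentile running from -0.24 to 0.49. AQP5, AQP3 and SCNN1A therefore lay below that range and AQP9 above it, whereas the other 5 lay within it. All 8 stayed below 0 under each scaling tried; library size scaling without centring moved the median of all names to -0.24.

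The values of cell markers moved beside these genes as follows. Hepatocyte markers were 14.4-fold to 48.5-fold higher in replicate 1, with all 9 over 2-fold and a median log2 ratio of 4.33. The AQP9 ratio of 1.41 was smaller than that of every one of these 9. Neutrophil markers had log2 ratios from -0.19 to -0.10 with all 4 above 1 TPM, and summed to 959 TPM in replicate 1 and to 1412 TPM in replicate 2, led by S100A8, S100A9 and CSF3R. The ratio of AQP9 thus lay between those of the hepatocyte markers and those of the neutrophil markers. Alveolar type I markers had log2 ratios from -0.24 to -0.07 (median -0.19) and type II markers from -0.29 to -0.10 (median -0.19), close to the median of the 9 genes. That is not particular to alveolar markers. The medians were -0.17 for endothelial, -0.23 for airway secretory, -0.26 for cholangiocyte, -0.14 for neutrophil and -0.08 for ciliated cell markers. What part these cell types had in any of the values was not tested.

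**Figure D3:**
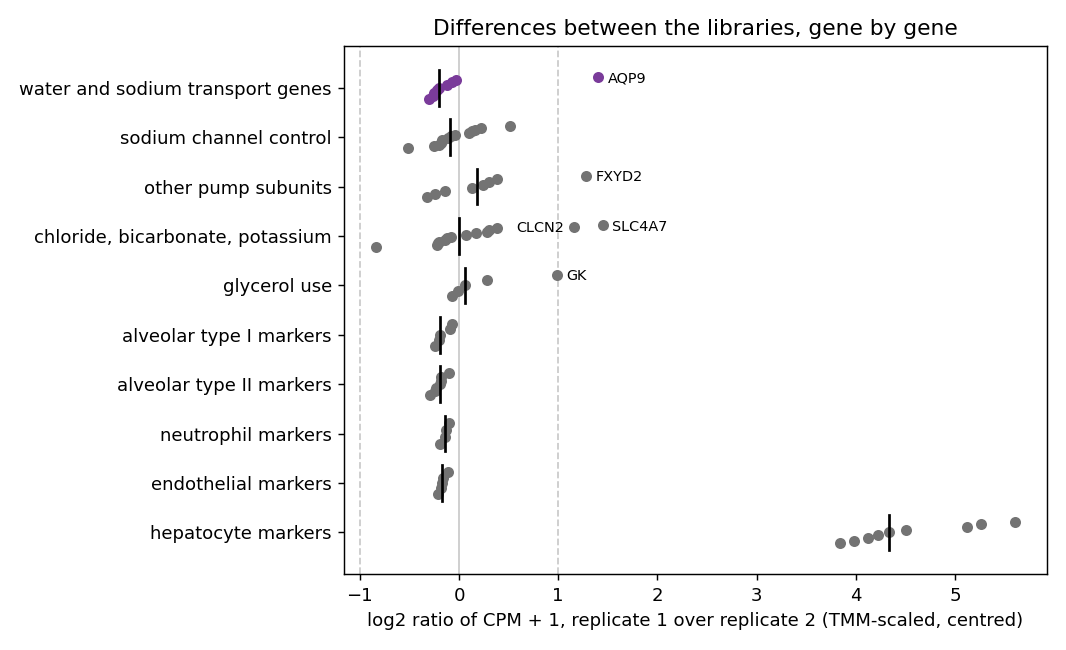
Log2 ratio of CPM + 1 of replicate 1 over replicate 2 (horizontal axis, TMM-scaled and centred on all names) for each gene that passed the filter (points), by gene list (rows), with the median of each list as a black bar and 2-fold as dashed lines. AQP9 stands at 1.41, apart from the other 8 water and sodium transport genes and below the 9 hepatocyte markers, which lie between 3.84 and 5.60.

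Markers of other cell types were also listed. Endothelial markers (PECAM1, CDH5, VWF, CLDN5, EMCN), cells in which AQP1 is known, summed to 211.5 TPM in replicate 1 and to 311.5 TPM in replicate 2, led by CLDN5, VWF and PECAM1. Erythroid markers, of cells in which AQP1 is also known, summed to 29880 and 36300 TPM over 3 of 5 names, led by HBA, HBB and ALAS2. On scaled counts all 3 had log2 ratios above 0 (0.10, 0.13 and 0.43). Ciliated cell markers summed to 137.1 and 200.6 TPM with 6 of 6 above 1 TPM, led by FOXJ1, RSPH1 and DNAH5. All of these TPM sums were higher in replicate 2, and the log2 ratios of the endothelial markers ran from -0.22 to -0.12. What part endothelial or erythroid cells had in the AQP1 values was not tested. The airway secretory sum given above came from 5 of 6 names, led by SCGB3A1, SCGB3A2 and SCGB1A1, and 2 of them were above 1 TPM in both libraries. SCGB1A1 had 1 and 24 counts and did not pass the filter; BPIFA1, singled out once its values were known, had 1 and 224 counts, a log2 ratio of -3.50, and was 1 of the 3 names over 2-fold lower in replicate 1. Cholangiocyte markers summed to 513.9 and 793.2 TPM over 3 of 4 names, led by KRT19, KRT7 and EPCAM, which other epithelia share. These epithelial TPM sums were again higher in replicate 2. Astrocyte markers summed to 18.1 and 20.8 TPM over 2 of 3 names (GJA1 and SLC1A2). Of 5 kidney tubule markers 1 had a row, SLC22A6, at 16.2 TPM in replicate 1 and at 0.22 TPM in replicate 2. Outside hepatocytes it was the one marker list with a higher TPM sum in replicate 1, although on scaled counts the medians of the astrocyte list (0.89, 2 genes) and the erythroid list (0.13) were above 0 as well.

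Over the 6 further transport lists, 50 of 77 names had rows and 46 passed the filter. Of these, 3 were over 2-fold higher in replicate 1 and 0 over 2-fold lower, with a median log2 ratio of -0.04. The background shares were 5.16% over 2-fold higher and 0.0266% over 2-fold lower, so 3 of 46 is near the background and says nothing of these lists. FXYD2, the pump's gamma subunit, best known from kidney, was at 17.1 TPM (94 counts) in replicate 1 and at 7.52 TPM (34 counts) in replicate 2, a log2 ratio of 1.28. SLC4A7, a sodium bicarbonate cotransporter, was at 29.1 TPM (240 counts) and 9.24 TPM (92 counts), a log2 ratio of 1.45. CLCN2, a chloride channel, was at 5.74 TPM (38 counts) and 0.97 TPM (9 counts), a log2 ratio of 1.16. All of the 3 were low in counts, and none passed a filter of 10 CPM. CLCN2 was also lost to the filter of 1 CPM when the assembled gene with the most counts stood for each name. With a pseudocount of 0.1 CPM a further gene of the chloride list, KCNN4, a potassium channel, passed 2-fold at -1.53, with 9 and 35 counts.

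The remaining genes of those lists differed less. In the list of chloride, bicarbonate and potassium transport, 15 of 23 names had rows, and the highest were CLIC1, an intracellular chloride channel protein, at 125.7 and 188.2 TPM, the scaffold SLC9A3R2 at 84.9 and 115.0 TPM, the anion exchanger SLC4A2 at 40.9 and 30.9 TPM, and the scaffold SLC9A3R1 at 31.9 and 17.8 TPM. The TPM of SLC4A2 and SLC9A3R1 were higher in replicate 1, the reverse of CLIC1 and SLC9A3R2. On scaled counts SLC4A2 was near 0, with a log2 ratio of 0.07 (1362 and 1550 counts), and SLC9A3R1 was at 0.39 (762 and 694 counts). Of sodium-coupled entry and proton exchange, 4 of 10 names had rows, among them SLC34A2, the phosphate transporter of alveolar type II cells, at 129.3 and 199.6 TPM, and the glucose transporters SLC5A2 at 8.04 and 19.6 TPM and SLC5A1 at 8.87 and 9.60 TPM. SLC34A2 was the highest of these 3 in both libraries and its log2 ratio on counts was -0.19.

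Genes of glycerol use, with 2 lipases of fat breakdown among them, were set beside AQP9, and 5 of 5 had rows. The lipases were PNPLA2, at 101.2 TPM in replicate 1 and at 136.2 TPM in replicate 2, and LIPE, at 17.9 and 26.8 TPM. GPD1 was at 16.6 and 14.8 TPM (877 and 858 counts). GPD2 was at 14.8 and 19.6 TPM, but on only 25 and 30 counts over 5 assembled genes, so its TPM is uncertain. GK, glycerol kinase, which traps glycerol in the cell and was singled out once its values were known, was at 10.6 TPM (358 counts) and 3.41 TPM (206 counts). Its log2 ratio of 0.99 lay just under 2-fold, and 0 of the 5 were past it, beside 5.16% of all names over 2-fold higher in replicate 1 and 0.0266% over 2-fold lower.

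By a fixed rule, the 3 listed names nearest in log2 ratio to AQP9 and to AQP5 were found among 103 names of all lists that passed the filter, over 2 libraries. For AQP9 they were SLC4A7 at a distance of 0.05, FXYD2 at 0.12 and SLC1A2, a glutamate transporter of astrocytes and of some hepatocytes, at 0.15. SLC1A2 had 36 and 1 counts, the second under the floor of 3, and with a pseudocount of 0.1 CPM its log2 ratio was 3.88 against 1.44 for AQP9, so that likeness rests on the pseudocount. For AQP5 they were NAPSA, an alveolar type II protease, at 0.01, FXYD5, a pump regulator, at 0.02 and KRT19, an epithelial keratin, at 0.03. With 2 libraries, likeness means only a similar ratio.

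The 9 genes rested on 17 assembled genes of 207 to 4195 bases. AQP5, SCNN1A and SCNN1B had 1 assembled gene each, and the other 6 had 2 or 3. The membrane channel domain MIP was listed for 10 of 11 aquaporin assembled genes, the sodium channel domain ASC for 4 of 4, and the pump domain Na_K-ATPase for 2 of 2 of ATP1B1. The choice by name did not use these domains. Names and domains come from the same sequences, so the domains are no independent check. The best matches were to proteins of 6 species, which does not show the species of a transcript. AQP4 was split most, over assembled genes with 42, 38 and 8 counts in replicate 1 and 40, 63 and 9 in replicate 2. AQP1 had 1 assembled gene of 882 bases with 401 and 541 counts and another of 875 bases with 35 and 31 counts.

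Assembled genes of 1 name did not always differ in the same direction. The main ATP1B1 assembled gene, of 2514 bases, had 2449 counts in replicate 1 and 3038 in replicate 2, whereas the smaller, of 471 bases, had 27 and 4. The long and the short AQP9 assembled genes both had more counts in replicate 1. Because near-identical copies may share reads, the values of these small assembled genes are uncertain.

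**Figure D4:**
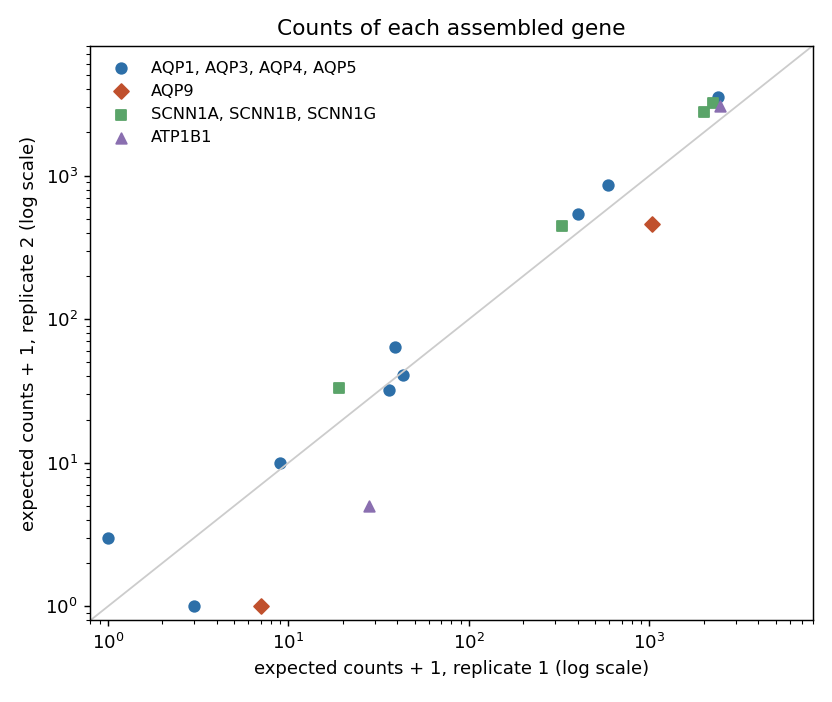
Expected counts + 1 of each assembled gene of the 9 genes in CW replicate 1 (horizontal axis, log scale) and CW replicate 2 (vertical axis, log scale), with a grey line at equality. The long AQP9 assembled gene (1030 and 456 counts) lies below the line, and those of AQP5, SCNN1A and SCNN1B lie above it.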

How the data were processed

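Poly(A)-selected RNA of 2 libraries was sequenced per the labels' protocols. The submitters' processing notes name cutadapt 1.9, and for replicate 1 the build mm10 with no role; the aligner and quantifier are not given in the sources used here. The features are 55378 assembled genes with Trinity cluster names per the file headers, so no coordinates were used, and strand handling is not stated. The deposited expected counts have decimals and were rounded after summing per name. The authors made the deposited TPM values per transcript length and per library total, judged from their sums of 996837 and 996239; the file headers name no unit, nor how they were computed. The length of each assembled gene is as deposited. Rows with no name (30192; 8.7% and 9.69% of counts) entered scaling but not the tested names. Of the 10 symbols, 9 were in the RefSeq gene table of ASM189008v1.

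Scaling used TMM factors of 0.91 and 1.10, computed with edgeR 4.0.16 in R 4.3.3. Ratios used a pseudocount of 1 CPM and a mean of at least 1 CPM. Counts were simulated for replicate 1 over replicate 2 with 11366 names. Of 50 names at each log2 change, 100.0% passed 2-fold at 3 in either direction, 88.0% at -1.5 and 92.0% at 1.5. Of unchanged names, 0.1% passed. Both simulated libraries came from the same mean shares with an assumed small spread, and equal numbers of names were raised and lowered. The simulation therefore mirrors neither the spread between animals nor the excess of names higher in replicate 1. The count of 3 taken as detection floor equals 0.16 CPM in either library. Alternatives were other scalings (DESeq2 1.42.0 size factors among them), pseudocounts, filters, single assembled genes, left-out replicates and recomputed TPM. Named genes were all members, the 4 highest of each transport list with any over 2-fold apart, the 3 highest of each marker list, and the 3 nearest ratios. Some genes that this takes are not reported here. Members and lists were chosen with earlier results of these data known. Python 3.11.15, pandas 2.3.3, numpy 2.4.6, scipy 1.17.1 and matplotlib 3.10.9 were used.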

Additional observations from a re-analysis of the deposited data

How the results depend on the processing

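AQP9 stayed below AQP5 under each alternative, with a mean log2 ratio from -2.10 to -1.49 beside -1.44, and from -2.39 to -0.49 without each replicate in turn. All 9 genes stayed above 1 TPM in both libraries under each alternative tried, and 1 of them, AQP9, stayed past 2-fold, with a log2 ratio from 1.15 to 1.44. Names over 2-fold apart were 586 in all, 343 with a stricter filter of 10 CPM on the mean, which tests fewer names, and 505 to 686 under the other settings. At that filter AQP4 was not tested. SCNN1A over SCNN1B had a log2 ratio of -0.018, which was 0.031 without replicate 1, a change of sign, and -0.066 without replicate 2. SCNN1G over SCNN1A moved from -1.83 to -2.58 with the assembled gene of the most counts and to -1.39 with recomputed TPM. Genes of glycerol use past 2-fold went from 0 to 1 (GK) with a pseudocount of 0.1 CPM, at a mean of at least 10 CPM, and with TMM scaling without centring, an alternative added after the data were seen; it stayed at 0 with library size scaling without centring. Chloride list genes past 2-fold were 2, but 1 with the assembled gene of the most counts, 3 with a pseudocount of 0.1 CPM and 0 at 10 CPM, where the pump list also went from 1 to 0. No paired analysis was possible because the labels give a single group of 2 libraries. With 1 library against 1, the AQP9 difference rests on 1036 counts in replicate 1 and 456 in replicate 2, and the spread between animals is unknown.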
